A study of Capra hircus with 14 samples.

Results

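Goat cells after 4 days of induction by small molecules were compared with the fibroblasts they came from, over all genes measured. The 2 libraries of each day were chosen by the day in their titles and by no measured value, so the comparison rests on 4 of the 14 libraries of the series. The day 4 cells, labelled CiMEC and induced mammary epithelial cells, had been kept for 4 days in R induction medium, renewed at 2-day intervals, in dishes coated with Matrigel. The day 0 cells, labelled GEF and fibroblasts, had been grown in DMEM with 10% fetal bovine serum and antibiotics. All 4 libraries carry the genotype label WT and the treatment label reprogramming, no transgene is named, and what R induction medium contains is not given in the labels. The other 10 libraries, from days 1, 2, 3, 6 and 8, served only to estimate the spread and to show where day 4 lies in the course. RNA was depleted of ribosomal RNA before sequencing. Whether the replicates came from separate cultures is not stated in the labels, so p-values measure only the spread between libraries, which may be technical. The medium and the time in culture differ together between the days, as may the Matrigel coating given for day 4. These cannot be told apart.

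Smooth muscle and myoepithelial cells contract when a calcium signal activates myosin light chain kinase, MYLK, which phosphorylates the light chains of myosin and lets the motor pull on filaments of smooth muscle actin. Tropomyosin, calponin, caldesmon and transgelin line those filaments, and focal adhesions tie them to integrins and the matrix. Most of these genes are switched on by serum response factor, SRF, together with myocardin or the related factors MKL1 and MKL2, which enter the nucleus when actin polymerises. In the mammary gland this set belongs to the myoepithelial cells, which also carry the basal keratins KRT5 and KRT14 and squeeze milk from the alveoli in answer to oxytocin. Activated fibroblasts can switch on much of the same set.

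The libraries held 21653224 and 22725186 estimated counts at day 4, and 22397826 and 22124219 at day 0. Levels are in CPM, the counts of a gene scaled to a common library size. Genes with an adjusted p below 0.05 in edgeR's quasi-likelihood test are said to be called. Of 15712 genes tested, 5334 were higher at day 4, which is 33.9% of all, and 5265 were lower, which is 33.5%. Together 67.5% of all genes were called, so a call alone says little about a gene. Counts of calls in the gene lists below are to be read beside these shares. Changes of at least 2-fold were found for 2297 genes that were higher (14.6%) and 1388 that were lower (8.83%), and of at least 4-fold for 995 (6.33%) and 485 (3.09%). The median log2 fold change over all genes was 0.01. The day 0 libraries differed more from each other than those of any other day, and their chi-square divided by its degrees of freedom was 8.12, while that of the day 4 pair was 3.28. Ribosomal protein genes took 4.44% and 4.51% of the counts at day 4, against 5.74% and 5.43% at day 0. Longer genes stood somewhat higher at day 4, with a median log2 fold change of 0.24 in the longest 25% of genes and -0.14 in the shortest 25%.

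**Figure D1:**
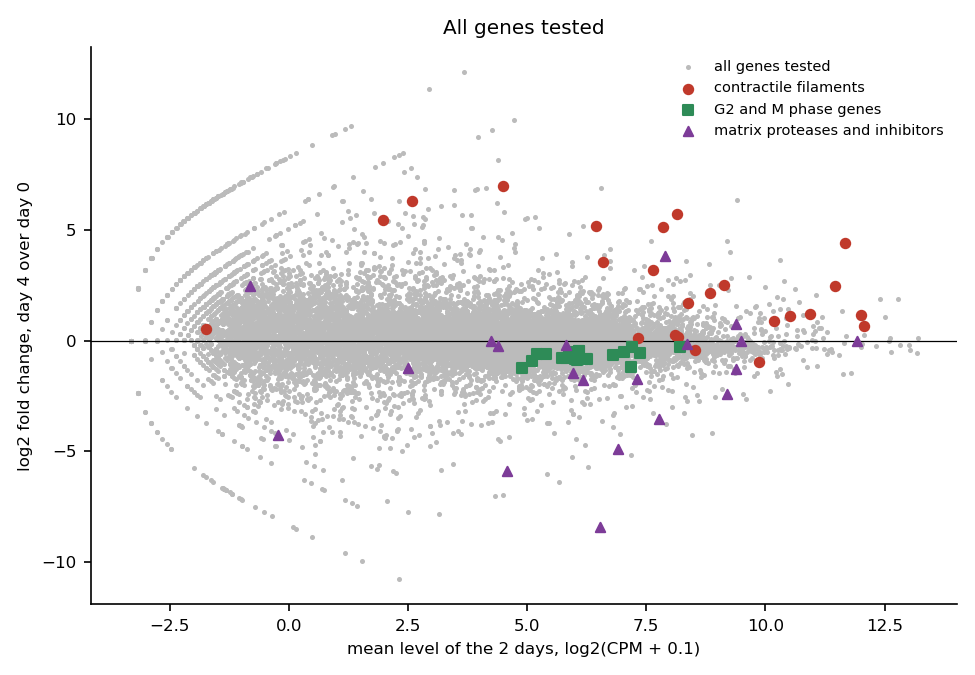
Log2 fold change of day 4 over day 0 (vertical axis) against the mean level of both days as log2(CPM + 0.1) (horizontal axis), 1 point per tested gene. Contractile filament genes (red circles) lie mostly above 0, many of them at high levels, G2 and M phase genes (green squares) lie just below 0, and matrix proteases with their inhibitors (purple triangles) spread down to -8.39 for MMP13.

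Genes of the contractile filaments stood far higher at day 4. Of 26 listed, MYL12A and MYL12B were not found by symbol, and of the 24 tested 20 rose, 2 fell and 2 were not called. That is 83.3% called higher, against 33.9% of all genes, and 16 of the 20 rose at least 2-fold. The list was chosen with earlier results of these data known, so its count is a description only. Under the deposited term vascular smooth muscle contraction, by contrast, 37 of 92 tested genes rose and 35 fell (median 0.03). The median log2 fold change was 1.92. Their summed level was 33594 and 34122 CPM in the day 4 libraries, against 12863 and 12930 CPM in the day 0 libraries. In bulk RNA, more cells of a type and more RNA per cell cannot be told apart.

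The smooth muscle actins rose. ACTA2, the alpha actin of smooth muscle and myofibroblasts, had 6173 and 6215 CPM at day 4, against 296 and 281 CPM at day 0. Both day 4 libraries lay far above both day 0 libraries, and the log2 fold change was 4.42 ± 0.0522 (SE; edgeR adjusted p = 2.44e-26). ACTG2, the gamma actin of visceral smooth muscle, had 449 and 451 CPM at day 4, against 12.8 and 12.4 CPM at day 0. Its log2 fold change was 5.16 ± 0.0755 (edgeR adjusted p = 1.13e-24), again with no overlap. The striated muscle actins were scarce. ACTC1, the cardiac actin, had 10.4 and 12.8 CPM at day 4, against 0.281 and 0 CPM at day 0, a log2 fold change of 6.32 that was 11 or 5.32 when day 0 replicate 1 or replicate 2 was left out. ACTA1, the skeletal actin, had 7.76 and 7.26 CPM at day 4, against 0.141 and 0.186 CPM at day 0 (log2 fold change 5.48). These 4 actins are nearly alike in their coding sequence and may share reads, so the levels of the scarce ones beside ACTA2 are uncertain.

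The make-up of the actin pool was therefore examined per length, with the cytoplasmic actins ACTB and ACTG1 added after their values were seen. Among the transcripts of 6 actin genes, counted per kilobase of the deposited gene length, ACTA2 made up 41.9% and 42.0% at day 4, against 2.90% and 2.95% at day 0. ACTG1 made up 31.3% and 31.5% at day 4, against 67.4% and 67.8% at day 0. The share of ACTB was 23.0% and 22.8% at day 4, against 29.6% and 29.1% at day 0. ACTA2 was thus the most abundant actin transcript per length at day 4, and ACTG1 at day 0.

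Myosin genes rose as well except the heavy chain MYH14, and the smooth muscle form rose most. MYH11, the heavy chain of smooth muscle myosin, had 354 and 365 CPM at day 4, against 41.7 and 38.0 CPM at day 0 (log2 fold change 3.17 ± 0.0635; edgeR adjusted p = 2.57e-22). The non-muscle heavy chains MYH10 and MYH9 rose less, by 1.70 and 1.14 on the log2 scale, and MYH14, another non-muscle form, at a low level, was not called (log2 fold change -0.25; edgeR adjusted p = 0.125). Per length, MYH9 remained the main heavy chain, with 86.3% and 86.1% of 4 heavy chain genes at day 4, against 92.5% and 92.4% at day 0. MYH11 made up 6.15% and 6.24% at day 4, against 1.73% and 1.52% at day 0. The regulatory light chain MYL9, which MYLK phosphorylates, had 734 and 746 CPM at day 4, against 179 and 157 CPM at day 0 (log2 fold change 2.14). The essential light chain MYL6 rose by 1.12.

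Among the calponins and transgelins, CNN1 and TAGLN, known from smooth muscle, rose most. Of their relatives, CNN2 and CNN3 stood slightly higher and TAGLN2 fell. SMTN, smoothelin, given below, was not called. CNN1, the calponin of smooth muscle, had 548 and 559 CPM at day 4, against 12.6 and 8.44 CPM at day 0 (log2 fold change 5.72 ± 0.0912; edgeR adjusted p = 4.46e-24). CNN3 and CNN2, calponins found in many cells, differed by 0.25 and 0.19, and the call of CNN2 was lost without day 4 replicate 2 (edgeR adjusted p = 0.067) or day 0 replicate 2 (0.0812). TAGLN, transgelin or SM22, had 2656 and 2814 CPM at day 4, against 1248 and 1132 CPM at day 0 (log2 fold change 1.20 ± 0.0479; edgeR adjusted p = 1.37e-16). TAGLN2, its relative in non-muscle cells, fell by 0.95 on the log2 scale. Per length, TAGLN made up 66.0% and 66.7% of 5 calponin and transgelin genes at day 4, against 46.1% and 44.8% at day 0.

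The tropomyosins differed among themselves as well. TPM1 had 4754 and 4850 CPM at day 4, against 852 and 886 CPM at day 0 (log2 fold change 2.47), and TPM2 had 955 and 968 CPM, against 177 and 156 CPM (log2 fold change 2.53). TPM4 rose by 0.64 and TPM3 fell by 0.40. Per length, TPM1 made up 50.3% and 50.0% of tropomyosin transcripts at day 4, against 24.8% and 25.1% at day 0, and TPM4 made up 34.3% and 34.8% at day 4, against 60.6% and 60.9% at day 0. In the RefSeq gene table of the goat assembly ARS1.2, TPM1 overlaps LOC102173195, which had 44.7 CPM at day 4 and 0.793 CPM at day 0. ACTG2 overlaps LOC108637134, at 0.708 CPM at day 4 and 0.0234 CPM at day 0, and without the strand setting reads of such neighbours cannot be told apart.

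Of the remaining filament genes, SYNPO2 and LMOD1 changed most. SYNPO2, an actin bundling protein of the Z-disc and of dense bodies, had 45.6 and 43.5 CPM at day 4, against 0.328 and 0.371 CPM at day 0 (log2 fold change 6.97). LMOD1, leiomodin 1, which nucleates actin filaments in smooth muscle and is a target of SRF, had 169.6 and 169.5 CPM at day 4, against 4.26 and 4.92 CPM at day 0 (log2 fold change 5.20). The intermediate filament gene SYNM rose by 3.56 and CALD1, caldesmon, by 0.90. SMTN, smoothelin, had 162 and 169 CPM at day 4, against 162 and 145 CPM at day 0, and was not called (edgeR adjusted p = 0.103), but it was called higher without day 0 replicate 1 (0.0081) and under upper-quartile scaling (0.0173). DES, desmin, the intermediate filament of mature muscle, had 6 and 4 counts at day 4 and 2 and 5 counts at day 0, close to the floor of 3 counts used here. The 17 members shorter than the median of all tested genes had a median log2 fold change of 2.14 and the 7 longer members one of 1.70; the part of gene length in the result was not tested.

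**Figure D2:**
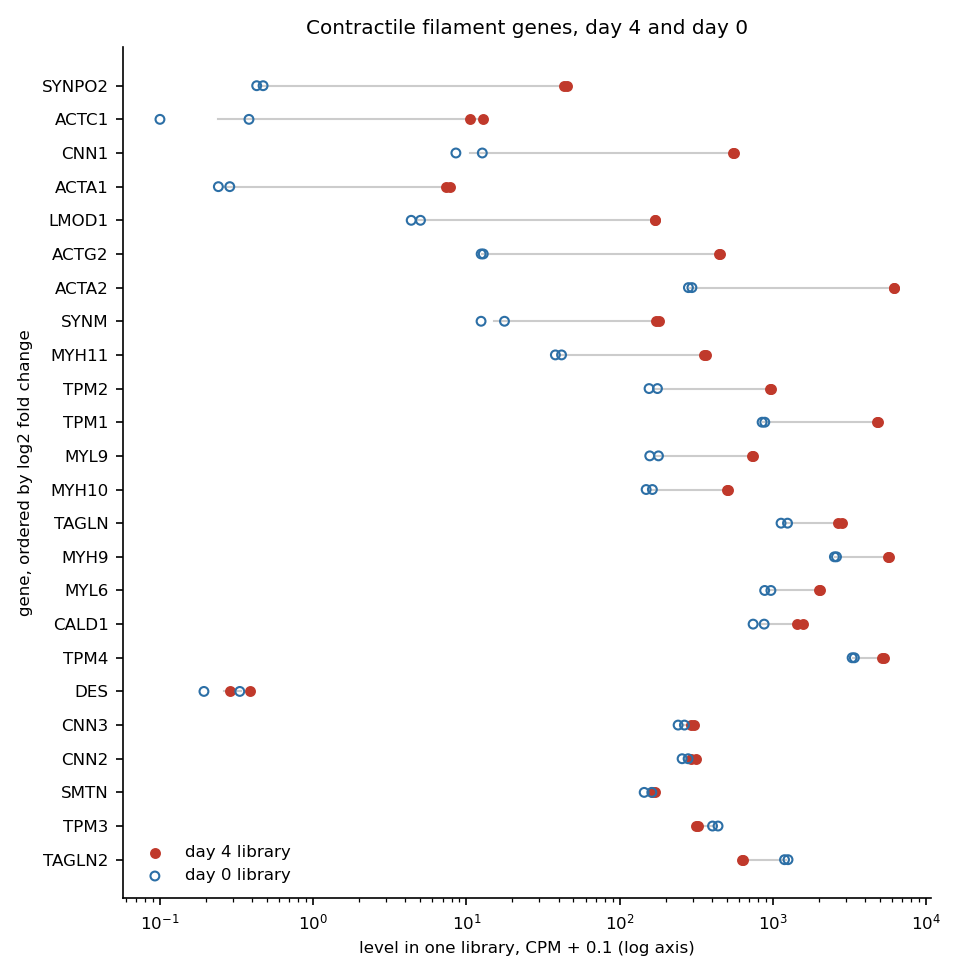
Level of each tested contractile filament gene in the day 4 libraries (filled red) and the day 0 libraries (open blue), as CPM + 0.1 on a log axis, ordered by log2 fold change; the grey line joins the means. Day 4 lies to the right of day 0 from SYNPO2 down to TPM4, the days lie close together for DES, CNN3, CNN2 and SMTN, and day 4 lies to the left for TPM3 and TAGLN2.

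The genes that control contraction did not move as a block. Of 31 listed, 27 were tested, 12 rose (44.4%), 9 fell (33.3%) and 6 were not called (median log2 fold change 0.48). Over all genes 33.9% rose and 33.5% fell, so the share that fell was that of all genes. At least 2-fold changes were 7 of the rises and 1 of the falls. MYLK had 1305 and 1353 CPM at day 4, against 14.5 and 17.6 CPM at day 0, a log2 fold change of 6.37 ± 0.0708 (edgeR adjusted p = 1.25e-26). The days did not come near each other. Calcium supply was represented by CACNA1C, the L-type channel, with 5.61 and 5.13 CPM at day 4 against 0.187 and 0.186 CPM at day 0 (log2 fold change 4.80), and by the store channel ITPR1, with 317 and 307 CPM against 50.5 and 60.5 CPM (2.49). ITPR2, another store channel, fell by 0.78, and ATP2A2, the pump that refills the store, rose by 0.97.

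KCNMB1, the smooth muscle subunit of the large calcium-activated potassium channel, rose by 2.67, while the pore subunit KCNMA1 fell by 0.47. PDE5A, which breaks down cyclic GMP and so counters relaxation, rose by 2.33, and GUCY1B3, a subunit of the enzyme that makes cyclic GMP, by 0.88. Of the myosin phosphatase, which reverses the action of MYLK, the targeting subunit PPP1R12A had 158 and 134 CPM at day 4, against 57.8 and 72.7 CPM at day 0, and rose; PPP1R12B rose by 0.71, PPP1R12C fell by 0.35 and the catalytic subunit PPP1CB rose by 0.48. The phosphatase inhibitor PPP1R14A, known from smooth muscle, rose by 1.15, and its relative PPP1R14B fell by 1.10.

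RHOA signalling genes moved little. ROCK1 rose by 0.50, ROCK2 was not called (0.05; 93.6 and 74.2 CPM at day 4, against 72.5 and 89.6 CPM at day 0), RHOC fell by 0.25, and RHOB had a log2 fold change of 0.30 that was not called (edgeR adjusted p = 0.0509). RHOA was called lower by 0.13, a call lost in the fit of the 4 libraries alone (edgeR adjusted p = 0.131), under upper-quartile scaling (0.153) and without day 4 replicate 1 (0.237). RGS2, PRKCA and EDNRB were called lower by 0.21, 0.27 and 0.96. The call of RGS2 was lost in the fit of the 4 libraries alone (0.0513) and when day 4 replicate 1 was left out (0.111). That of PRKCA was lost without day 4 replicate 2 (0.105), in the fit of the 4 libraries alone (0.0579) and under upper-quartile scaling (0.0551). That of EDNRB was lost without either day 4 library (0.072 and 0.0666), without day 0 replicate 2 (0.345) and with voom weights (0.0762). OXTR, the oxytocin receptor through which myoepithelial cells are made to contract, had 1 and 6 counts at day 4 and 2 and 2 counts at day 0 and was not tested. AGTR1 had 0 counts in the 4 libraries, and PLN and GUCY1A3 had at most 5 counts in any of them and were not tested. RGS4, RGS5, PRKG1, the kinase that cyclic GMP activates, and EDNRA, the endothelin receptor, were not called; EDNRA had 129 and 131 CPM at day 4, against 118 and 127 CPM at day 0.

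SRF and its partners split as well. Of 18 listed, 17 were tested, and all 17 were called, 9 higher (52.9%) and 8 lower (47.1%), with a median of 0.62. The shares over all genes were 33.9% and 33.5%, and 7 of the rises but 1 of the falls reached 2-fold. SRF itself had 135 and 132 CPM at day 4, against 81.3 and 80.8 CPM at day 0, a log2 fold change of 0.72 ± 0.0531 (edgeR adjusted p = 1.87e-11). MKL1, also called MRTF-A, had 157 and 167 CPM at day 4, against 59.7 and 50.2 CPM at day 0 (log2 fold change 1.56), and MKL2 rose by 1.11. MYOCD, the myocardin of smooth and cardiac muscle, was scarce, with 1.87 and 2.17 CPM at day 4 and 0.609 and 0.881 CPM at day 0 (log2 fold change 1.43 ± 0.307; edgeR adjusted p = 0.000256). The 2 days did not overlap for any of these 4 genes.

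MEF2C, a muscle transcription factor, rose by 3.28, MEF2A by 0.62, the YAP partner TEAD1 by 1.76 and FHL1 by 1.23. The ternary complex factors, which bind SRF in competition with the myocardin family and direct it to growth factor genes, moved in both directions. ELK3 had 55.3 and 52.1 CPM at day 4, against 225 and 253 CPM at day 0 (log2 fold change -2.15), and ELK1 fell by 0.95. ELK4 rose by 1.87, or by 2.49 without day 0 replicate 2. Small falls were called for FHL2, MEF2D, TEAD3, TEAD4, KLF5 and KLF4, from 0.25 to 0.43 on the log2 scale. GATA6 had 4 and 2 counts at day 4 and 0 at day 0 and was not tested.

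Within the course, day 4 was the day of the highest level for many filament genes. As a description over the 7 sampled days, 13 of the 24 tested had their highest mean at day 4, against 11.1% of all tested genes. The list was chosen with earlier results known, and most of its members were already called higher at day 4 than at day 0. For those a highest mean at day 0, found for 27.7% of all tested genes, was thus largely excluded beforehand. ACTA2 averaged 289 CPM at day 0, 1321 at day 1, 2820 at day 2, 4778 at day 3, 6194 at day 4, 4612 at day 6 and 3379 at day 8. CNN1, TAGLN, LMOD1, ACTG2, MYL9 and TPM2 also had their highest mean at day 4. MYLK and TPM1 were highest at day 6, and MYH11 and SYNPO2 at day 8, where MYH11 averaged 1488 CPM against 360 CPM at day 4. For these 4 genes day 4 was a point on the way and not the highest day. Other members were highest earlier: CALD1 and TPM4 at day 3, MYH10 at day 2, CNN2 at day 1, and TPM3 and TAGLN2 at day 0. CALD1 averaged 2335 CPM at day 3, 1514 at day 4 and 1983 at day 6. Some day 4 maxima were slight, as for CNN3, with 300 CPM at day 4 and 298 CPM at day 2.

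**Figure D3:**
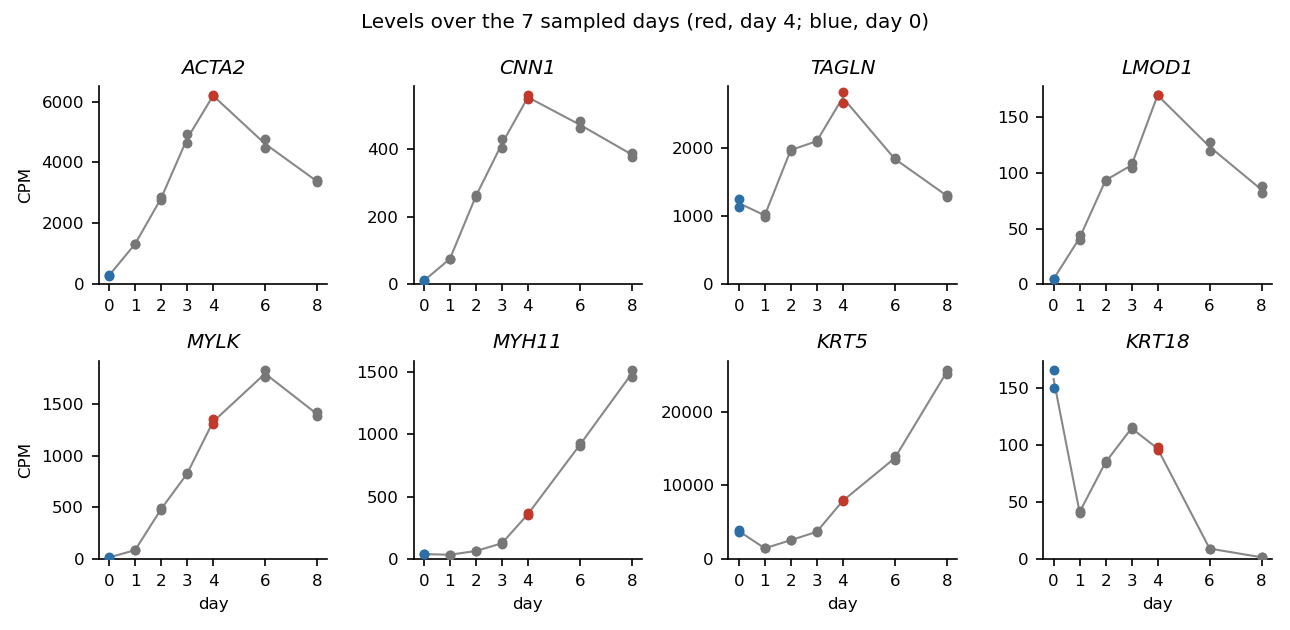
Level in CPM of 8 genes in each library (points) and the mean of each day (line) over the 7 sampled days, with day 4 in red and day 0 in blue. ACTA2, CNN1, TAGLN and LMOD1 have their highest mean at day 4, MYLK at day 6, MYH11 and KRT5 at day 8, and KRT18 at day 0.

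Markers of other contractile cells were read beside these values. Of 15 markers of vascular smooth muscle and pericytes, 12 were tested, 9 rose, 1 fell and 2 were not called, with a median of 2.23, and their summed level was 1485 and 1494 CPM at day 4, against 338 and 344 CPM at day 0. ITGA8, LMOD1, NOTCH3 and MCAM were among those that rose. LMOD1 and DES were also on the contractile filament list, MYOCD on the SRF list and ITGA8 on the integrin list. Such genes are counted again here. HIGD1B, a pericyte marker, had 0 counts in the 4 libraries, RGS5 had 3 and 4 counts at day 4 and 0 and 1 at day 0, and PLN and DES were close to the floor. Of 9 tested striated muscle markers 4 rose, 2 of them the actins ACTC1 and ACTA1, and 2 fell, and the summed level was 44.9 and 47.2 CPM at day 4, against 24.1 and 24.1 CPM at day 0. The myogenic factors MYOD1, MYF5 and MYOG had 0 counts in the 4 libraries. The part of such cells in the contractile result was not tested.

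Many genes of the structures that anchor contractile filaments were higher too. Of 32 tested genes of focal adhesions and actin linkage 22 rose (68.8%), 6 fell and 4 were not called, with a median of 1.11. VCL, vinculin, had 1702 and 1742 CPM at day 4, against 308 and 335 CPM at day 0 (log2 fold change 2.42 ± 0.0496; edgeR adjusted p = 4.01e-22). FLNA, filamin A, which crosslinks actin, had 5790 and 5632 CPM at day 4, against 2898 and 2638 CPM at day 0 (log2 fold change 1.05). Large rises were those of LIMS2, a partner of integrin-linked kinase, by 5.56, of SORBS2, an adaptor of vinculin, by 4.14, and of TNS1, tensin 1, by 2.84. PXN, paxillin, and ZYX, zyxin, both named because they went against the list, fell by 0.67 and 0.35.

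Of 18 tested integrin genes 8 rose (44.4%, against 33.9% of all genes) and 3 fell (16.7%, against 33.5%). The other 7 were not called, and the median was 0.15. ITGA8, a receptor for nephronectin found on smooth muscle and mesenchyme, had 183 and 186 CPM at day 4, against 1.31 and 1.81 CPM at day 0 (log2 fold change 6.88 ± 0.095; edgeR adjusted p = 4.45e-25). ITGA7, a laminin receptor of muscle, had 13.2 and 15.0 CPM at day 4, against 0.0469 and 0.186 CPM at day 0, which is 1 and 4 counts, so its fitted change of 6.85 is uncertain (6.20 or 8.05 when day 0 replicate 1 or replicate 2 was left out). ITGB1, the common partner chain, rose by 0.59, and ITGB8 by 2.21. ITGA10, a collagen receptor, had 1.10 and 1.34 CPM at day 4, against 24.2 and 21.9 CPM at day 0 (log2 fold change -4.23). ITGA6 and ITGB4, the integrin of hemidesmosomes, were not called, although without day 0 replicate 2 ITGA6 was called higher (edgeR adjusted p = 0.000152) and ITGB4 lower (0.014).

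Caveolae are membrane pits that are dense in smooth muscle. Of 9 tested genes 6 rose, 2 fell and 1 was not called. CAV1 had 686 and 676 CPM at day 4, against 279 and 289 CPM at day 0 (log2 fold change 1.26), and CAV2 rose by 1.52. PTRF, or cavin 1, rose by 0.50. SDPR, or cavin 2, had 883 and 892 counts at day 4 and 0 and 6 counts at day 0, with a fitted log2 fold change of 8.16 that was 7.20 or 12.82 when day 0 replicate 1 or replicate 2 was left out. PRKCDBP, or cavin 3, fell by 0.87.

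Epithelial genes were present on both days, and their lists held members that rose and members that fell. Of 15 tested basal genes 6 rose (40.0%), 4 fell (26.7%) and 5 were not called, with a median of 0.11, a share near the 33.9% of all genes. KRT5 had 7816 and 7968 CPM at day 4, against 4004 and 3616 CPM at day 0 (log2 fold change 1.05 ± 0.045; edgeR adjusted p = 5.64e-16), and may share reads with KRT6A. TP63, the regulator of basal epithelium, had 103 and 105 CPM at day 4, against 50.1 and 55.6 CPM at day 0 (log2 fold change 0.97). KRT14 had 3895 and 3936 CPM at day 4, against 4627 and 4149 CPM at day 0, and was called lower by 0.16 (edgeR adjusted p = 0.00407). The call of KRT14 was lost without day 0 replicate 1 (0.0871), in the fit of the 4 libraries alone (0.0681) and under upper-quartile scaling (0.0561). DST, dystonin, a linker of hemidesmosomes, rose by 1.35, and LAMB3, a chain of laminin 332, fell by 1.62.

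Luminal genes split. Of 20 tested 7 rose (35.0%), 8 fell (40.0%) and 5 were not called, with a median of -0.01. Over all genes 33.9% were called higher and 33.5% lower, so the shares of calls lay near those. The changes were often large, however. All 7 rises and 5 of the falls reached 2-fold, while over all genes 14.6% rose and 8.83% fell by that much. KRT8 had 1831 and 1896 CPM at day 4, against 1987 and 1834 CPM at day 0, without a call unless day 0 replicate 2 was left out (lower; edgeR adjusted p = 0.0238), and its partner KRT18 had 95.8 and 98.5 CPM, against 166 and 150 CPM (log2 fold change -0.70). The simple keratins KRT19 and KRT7 rose by 1.06 and 1.01 on the log2 scale, with 475 and 491 CPM of KRT19 at day 4, against 229 and 233 CPM at day 0. EHF, an epithelial transcription factor, rose by 1.65 and GATA3, a luminal regulator, by 1.08. CLDN4, a tight junction claudin, fell by 2.16 and CLDN3 fell by 3.84. CD24, a surface glycoprotein of luminal cells, had a log2 fold change of -4.24, or -5.33 and -3.61 when day 4 replicate 1 or replicate 2 was left out. ELF5, the regulator of secretory cells, had 7 and 10 counts at day 4 and 7 and 1 counts at day 0 and was not called (edgeR adjusted p = 0.137), but was called higher without day 0 replicate 1 (0.0128).

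Milk protein genes were low or not detected. Of 10 listed, 2 were tested and both were lower: SPP1, osteopontin, had 31.2 and 27.6 CPM at day 4, against 178 and 175 CPM at day 0 (log2 fold change -2.58), and LPO, lactoperoxidase, had 0.862 and 0.878 CPM, against 1.92 and 1.81 CPM. The call of LPO was lost without day 4 replicate 1 (edgeR adjusted p = 0.0698), day 4 replicate 2 (0.0662) or day 0 replicate 1 (0.0632). CSN2, CSN1S1, CSN1S2, CSN3, LALBA, PAEP and GLYCAM1 had 0 counts in the 4 libraries. A gene with 0 counts in a day 4 library could have stood at up to 0.1385 or 0.132 CPM, the level of 3 counts. The keratins KRT5, KRT14 and KRT8, by contrast, averaged 7892, 3916 and 1863 CPM at day 4, labelled induced mammary epithelial cells. At day 0, labelled fibroblasts, they averaged 3810, 4388 and 1910 CPM. What these levels say about cell identity was not tested.

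Among 29 tested junction genes 11 rose (37.9%), 13 fell (44.8%) and 5 were not called, with a median of -0.16. The shares over all genes were 33.9% and 33.5%. DSP, desmoplakin, had 646 and 635 CPM at day 4, against 296 and 313 CPM at day 0 (log2 fold change 1.07), and DSG3, a desmosomal cadherin, rose by 1.81. CDH1, E-cadherin, had 93.0 and 94.5 CPM at day 4, against 108 and 112 CPM at day 0 (log2 fold change -0.23; edgeR adjusted p = 0.00179), and EPCAM fell by 0.41. PKP3 and ST14 fell by 2.04 and 1.68. Of 13 epithelial transcription factors 7 rose and 2 fell, among them TFCP2L1, with 9.25 and 9.89 CPM at day 4, against 1.08 and 1.07 CPM at day 0 (log2 fold change 3.15), and GRHL1, higher by 1.64. The small rise of GRHL2 (0.39; edgeR adjusted p = 0.0385) lost its call under 7 of the 14 alternatives, among them without day 4 replicate 1 (0.184) and without day 0 replicate 1 (0.214).

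Fibroblast genes fell more often than they rose, but several rose. Of 25 tested 16 fell (64.0%), against 33.5% of all genes, 7 rose and 2 were not called, with a median of -0.47. VIM, vimentin, had 7683 and 7957 CPM at day 4, against 8843 and 8803 CPM at day 0 (log2 fold change -0.17). S100A4, a calcium-binding protein of fibroblasts, had 215 and 215 CPM at day 4, against 1381 and 1294 CPM at day 0 (log2 fold change -2.64). NT5E, an ectonucleotidase of stromal cells, and FAP, fibroblast activation protein, fell by 3.26 and 3.27, and MFAP2, a microfibril protein, by 3.33. PRRX1, a mesenchymal transcription factor, had 1327 and 1332 CPM at day 4, against 537 and 578 CPM at day 0 (log2 fold change 1.25). THY1 rose by 0.99 and PDGFRA by 0.36, while PDGFRB fell by 0.52 and DCN, decorin, by 0.42.

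Genes tied to epithelial-mesenchymal transition (EMT) split. Of 8 tested 2 rose, 4 fell and 2 were not called. PRRX1, given above, and ZEB2 rose, by 1.25 and 0.72, while SNAI2, SNAI1 and TWIST1 fell by 0.30, 0.40 and 0.74, and TWIST2 fell by 1.81. CDH2, N-cadherin, had 95.9 and 102 CPM at day 4, against 91.5 and 98.6 CPM at day 0, and overlapped between the days.

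Collagen genes divided. Of 23 tested 11 rose (47.8%), 9 fell (39.1%) and 3 were not called, with a median of 0.00. The shares over all genes were 33.9% and 33.5%. COL4A1, of basement membrane, had 806 and 848 CPM at day 4, against 73.3 and 75.3 CPM at day 0 (log2 fold change 3.48 ± 0.0542; edgeR adjusted p = 3.66e-24), its partner COL4A2 rose by 2.76, and COL8A1, of vessel walls, by 2.90. COL12A1, which coats fibrils, rose by 2.70. The abundant fibril collagens moved less. COL1A1 had 7228 and 7222 CPM at day 4, against 10079 and 9067 CPM at day 0 (log2 fold change -0.41), COL3A1 was not called, and COL1A2 was called higher by 0.12, a call lost under 4 alternatives, among them without day 4 replicate 2 (edgeR adjusted p = 0.102). COL13A1 had 0 counts at day 4 and 61 and 51 at day 0, so it was at least 37.0-fold lower, taking 3 counts over the day 4 pair as the floor.

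Of 28 tested matrix glycoproteins and proteoglycans 15 rose and 11 fell. TNC, tenascin C, had 3459 and 3476 CPM at day 4, against 836 and 836 CPM at day 0 (log2 fold change 2.05), ASPN, asporin, rose by 4.55, OGN, osteoglycin, by 3.98, MGP by 2.90 and THBS2 by 2.32. THBS1, thrombospondin 1, named because it had the most counts of any gene at day 4, averaged 11065 CPM at day 4, against 3018 CPM at day 0 (log2 fold change 1.87). BGN, biglycan, had 571 and 590 CPM at day 4, against 2374 and 2142 CPM at day 0 (log2 fold change -1.96), and FN1, fibronectin, was not called.

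Many enzymes that break down matrix fell. Of 20 tested proteases and inhibitors 13 fell (65.0%), 3 rose and 4 were not called, with a median of -1.25. MMP13, a collagenase, had 0.383 and 0.693 CPM at day 4, against 177 and 190 CPM at day 0 (log2 fold change -8.39 ± 0.133; edgeR adjusted p = 4.2e-24). MMP9, a gelatinase, had 0.814 and 0.786 CPM at day 4, against 53 and 40.8 CPM at day 0 (-5.86), and MMP3, stromelysin, had 7.23 and 8.14 CPM, against 230 and 231 CPM (-4.90). MMP2, the other gelatinase, had 3830 and 3892 CPM at day 4, against 4119 and 3697 CPM at day 0, without a call unless day 0 replicate 2 was left out (lower; edgeR adjusted p = 0.0197). ADAMTS1, a protease that cuts proteoglycans, went the other way, with 450 and 442 CPM at day 4, against 29.3 and 34.4 CPM at day 0 (3.81), and the inhibitor TIMP3 rose by 0.75.

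TGF-beta is a known inducer of contractile genes in fibroblasts, and its own genes and its target genes did not move in 1 direction. Of 20 tested ligands, receptors and SMADs 6 rose (30.0%, against 33.9% of all genes) and 11 fell (55.0%, against 33.5%). The other 3 were not called, and the median was -0.23. The ligands switched. TGFB3 had 193 and 211 CPM at day 4, against 10.4 and 12.6 CPM at day 0 (log2 fold change 4.13 ± 0.0757; edgeR adjusted p = 4.83e-23), and TGFB2 had 21.0 and 20.4 CPM, against 1.08 and 1.72 CPM (3.88). TGFB1 had 38.4 and 37.2 CPM at day 4, against 227 and 195 CPM at day 0 (-2.48). SMAD7, the feedback inhibitor that TGF-beta induces, had 4.6 and 5.04 CPM at day 4, against 59.0 and 58.1 CPM at day 0 (-3.60).

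All 15 tested TGF-beta target genes were called, 6 higher (40.0%) and 9 lower (60.0%), with a median of -0.99. CTGF had 1134 and 1176 CPM at day 4, against 487 and 480 CPM at day 0 (log2 fold change 1.26), and LMCD1 rose by 2.89. IL11, a cytokine of activated fibroblasts, had 2.73 and 3.01 CPM at day 4, against 159 and 144 CPM at day 0 (-5.72), and PMEPA1, an inhibitor of the pathway, fell by 3.37. ACTA2 and TAGLN, which are often counted among such targets, rose, as given above.

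**Figure D4:**
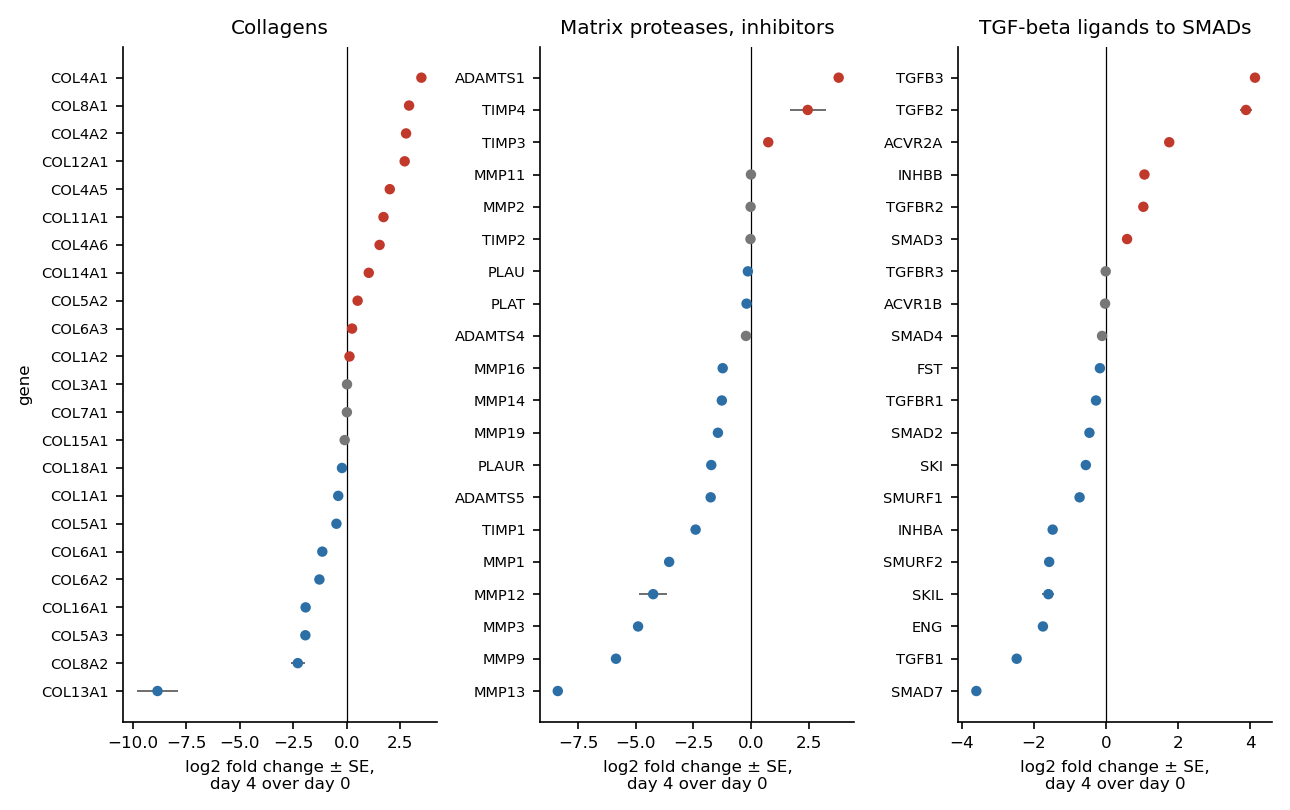
Log2 fold change of day 4 over day 0 with its standard error for the tested collagens, matrix proteases with inhibitors, and TGF-beta ligands, receptors and SMADs; red points were called higher, blue points lower and grey points not called. COL4A1, ADAMTS1 and TGFB3 lead the rises of their panels, and MMP13 and SMAD7 the falls of theirs; COL13A1 had 0 counts at day 4, so its point depends on the prior count.

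Targets of the mechanosensitive factors YAP and TAZ rose in 11 of 16 tested genes (68.8%) and fell in 4 (median 0.54). CRIM1 rose by 2.95, F3, tissue factor, by 1.28 and CYR61 by 0.51. ANKRD1 was called higher by 0.57, a call lost under 6 alternatives, among them without day 4 replicate 1 (edgeR adjusted p = 0.115), day 4 replicate 2 (0.119) or day 0 replicate 2 (0.336). Immediate early genes and genes of feedback on the kinase ERK fell in 18 of 26 tested genes (69.2%) and rose in 5 (median -0.75). EGR1 had 23.3 and 25 CPM at day 4, against 80.7 and 81.9 CPM at day 0 (log2 fold change -1.75), SPRY4, an ERK feedback inhibitor, fell by 4.44, EGR3 by 4.08, IER3 by 2.97 and ETV4 by 2.63. FOS rose by 1.40.

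Most cell cycle genes of both phase lists fell, the median member by less than 2-fold. Of 20 tested genes of G2 and M phase all 20 fell, with a median of -0.67, and of 18 of S phase 15 fell and 3 were not called, with a median of -0.63. MKI67, a proliferation marker, had 277 and 257 CPM at day 4, against 318 and 332 CPM at day 0 (log2 fold change -0.28 ± 0.0657; edgeR adjusted p = 0.000579). CDC20 fell by 1.19, AURKB by 1.24, CCNB1 by 0.63, PCNA by 0.63 and CDT1, which licenses replication, by 1.44. The cell cycle inhibitor CDKN1A, or p21, had 460 and 477 CPM at day 4, against 154 and 146 CPM at day 0 (log2 fold change 1.64), in a list of inhibitors and p53 targets with 9 higher and 7 lower of 17. The stress genes SESN2 and SESN1 of that list rose by 1.75 and 1.65, and CDKN1C and CDKN2B fell by 2.35 and 2.16.

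Inflammatory genes fell. Of 14 tested 11 fell (78.6%), 1 rose and 2 were not called (median -1.32). LIF had 7.33 and 8.41 CPM at day 4, against 274 and 286 CPM at day 0 (log2 fold change -5.15 ± 0.0829; edgeR adjusted p = 4.59e-24), and IL6 had 22.5 and 20.4 CPM, against 199 and 209 CPM (-3.25). CXCL8 fell by 1.24 and CSF3 by 4.55. CSF2 had 1 and 0 counts at day 4 and 100 and 121 at day 0, which is 219-fold lower (95% interval 38.9 to 8688, counting error only). The fitted log2 fold change of CSF2 was -9.83 or -6.59 when day 4 replicate 1 or replicate 2 was left out, and that of CSF3 was -5.21 without day 4 replicate 2. CXCL12, the member that rose, was higher by 2.54. Of 18 interferon response genes 12 fell and 2 rose (median -0.62). ISG15, a ubiquitin-like antiviral protein, fell by 2.36, and MX1 fell by 1.13. The hypoxia and glycolysis list fell in 17 of 25 tested genes and rose in 5 (median -0.68). Among those that fell was VEGFA, with 91.9 and 84.3 CPM at day 4, against 396 and 425 CPM at day 0 (-2.22), and SLC16A3, a lactate exporter, fell by 3.70.

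**Figure D5:**
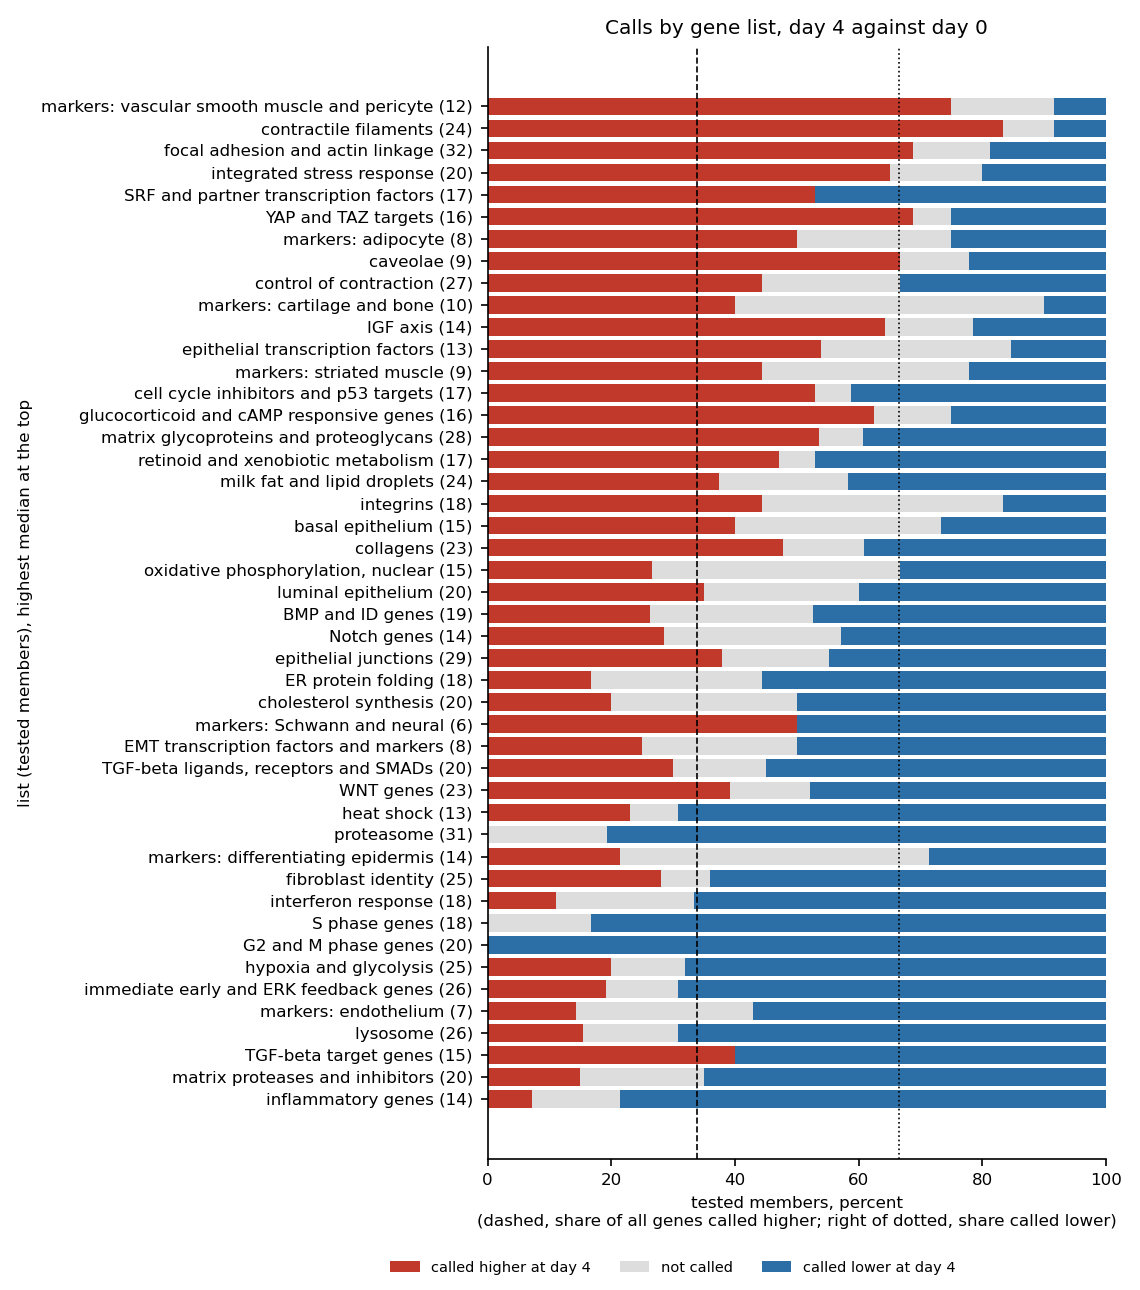
Share of the tested members of each gene list called higher (red), not called (grey) or called lower (blue) at day 4, with the number tested in brackets, for lists with at least 5 tested, ordered by median log2 fold change. The dashed line marks the 33.9% of all genes called higher, and the part right of the dotted line the 33.5% called lower; contractile filaments and smooth muscle markers lie at the top and inflammatory genes and matrix proteases at the bottom.

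Stress and turnover genes took separate courses. Among 20 genes of the integrated stress response 13 rose (65.0%) and 4 fell (median 0.70). Its supply genes rose, with SLC7A11, the cystine importer, higher by 3.45, STC2 by 3.35 and PSAT1, of serine synthesis, by 2.35, while the factors DDIT3 and CEBPB fell by 1.00 and 2.76 and ATF4 was not called unless day 0 replicate 1 was left out (higher; edgeR adjusted p = 0.0332). Of 31 proteasome genes 25 fell (80.6%) and 6 were not called, with a median of -0.35. Of 26 lysosome genes 18 fell (69.2%; median -0.89), and the protease CTSK, cathepsin K, had 226 and 242 CPM at day 4, against 1231 and 1254 CPM at day 0 (log2 fold change -2.41). CTSB fell by 1.52 and CTSD by 0.90. Of 13 heat shock genes 9 fell, as did 10 of 18 genes of protein folding in the endoplasmic reticulum, but HSPB8, a small chaperone of muscle, rose by 4.37.

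Signalling lists outside TGF-beta were mostly mixed. In the IGF axis 9 of 14 genes rose and 3 fell. IGF1 had 32.0 and 26.7 CPM at day 4, against 0.281 and 0.232 CPM at day 0 (log2 fold change 6.81 ± 0.197; edgeR adjusted p = 2.71e-19), and its receptor IGF1R had 579 and 564 CPM, against 134 and 147 CPM (2.02). Among 16 genes known to answer glucocorticoids or cyclic AMP 10 rose and 4 fell, with TSC22D3, PER1 and SGK1 higher by 1.43, 1.41 and 1.08. FKBP5, another gene of that list, was called higher by 0.17, a call lost under 6 alternatives, among them without day 4 replicate 2 (edgeR adjusted p = 0.105) or day 0 replicate 1 (0.183). Of 14 Notch genes 4 rose (28.6%) and 6 fell (42.9%), against 33.9% and 33.5% of all genes. The receptors NOTCH3 and NOTCH2 rose by 2.54 and 2.53, while the target genes HEY1 and HES1 and the modifier LFNG fell by 2.29, 0.71 and 2.26.

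Of 23 WNT genes 9 rose (39.1%) and 11 fell (47.8%), against 33.9% and 33.5% of all genes. SFRP2, a secreted WNT binder, had 195 and 200 counts at day 4 and 7 and 3 at day 0 (log2 fold change 5.28, or 6.0 without day 0 replicate 1). NKD1, a feedback inhibitor, had 137 and 150 counts at day 4 and 0 and 1 at day 0, with a fitted log2 fold change of 7.86 that was 7.02 or 10.19 when day 0 replicate 1 or replicate 2 was left out. AXIN2, another feedback gene, was called lower by 0.40, a call lost without day 4 replicate 2 (edgeR adjusted p = 0.0944) and with voom weights (0.0605), and WIF1 and WNT5B fell by 2.72 and 3.82. Of 19 BMP and ID genes 5 rose and 9 fell, with ID1 lower by 1.69 and BAMBI higher by 1.61. Of 17 retinoid and xenobiotic genes 8 rose and 8 fell, with DHRS3, which reduces retinaldehyde, higher by 3.91. Of 20 cholesterol synthesis genes 10 fell and 4 rose, and of the 15 listed nuclear genes of oxidative phosphorylation that were found, of 24, 4 rose and 5 fell. Of 24 genes of milk fat and lipid droplets 9 rose (37.5%) and 10 fell (41.7%). PLIN2, which coats lipid droplets, had 311 and 329 CPM at day 4, against 30.9 and 30.9 CPM at day 0 (3.37).

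The largest changes of single genes were taken among called genes at 10 CPM or more on the higher day. PLIN4, a lipid droplet coat protein, had 527 and 552 counts at day 4 and 0 at day 0, at least 363-fold higher. ZBTB16, a zinc finger factor induced by glucocorticoids and progestins, had 354 and 292 counts at day 4 and 0 at day 0, at least 217-fold higher; for both genes 3 counts over the day 0 pair was the floor. RSPO2, which enhances WNT signals, had 771 and 842 counts at day 4, against 0 and 2 at day 0, which is 814-fold higher (95% interval 225 to 6727). Its fitted log2 fold change was 8.59 or 12.68 when day 0 replicate 1 or replicate 2 was left out. ADCY5, an adenylate cyclase, had 613 and 701 counts against 1 and 1 (663-fold higher, 183 to 5481), and SFRP5 had 248 and 245 counts against 1 and 1 (249-fold higher, 68.5 to 2060). SDPR, SYNPO2, ITGA8 and ITGA7 followed among the 12 largest rises, with EEPD1 at 6.92, APOD, apolipoprotein D, at 6.85 and GPR21 at 6.83 on the log2 scale. Of these 12 genes, 4 belong to the filament, integrin or caveola lists, which held 24, 18 and 9 of the 15712 genes tested. Those lists were chosen with earlier results of these data known, so this count is a description only.

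Among the 12 largest falls 3 were matrix metalloproteinases, MMP13, MMP9 and MMP3, and IL11 and LIF were 2 others. TAC1, the precursor of substance P, had 1 and 2 counts at day 4 and 391 and 356 at day 0, and was 247-fold lower (95% interval 84.1 to 1199). SRPX2, a secreted protein of migrating cells, had 0 and 2 counts at day 4 and 254 and 220 at day 0 (235-fold lower, 64.7 to 1945), with a fitted log2 fold change of -6.82 or -10.93 when day 4 replicate 1 or replicate 2 was left out. LRRC32, which holds latent TGF-beta at the cell surface, had 0.383 and 0.324 CPM at day 4, against 44.5 and 43.9 CPM at day 0 (log2 fold change -6.95). RASGRF1, an activator of RAS, fell by 6.36, GDF10, a member of the TGF-beta family, by 6.0, C2CD4B by 5.55 and C1QL2 by 5.26.

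Markers of further cell types did not rise together. Of 7 tested endothelial markers 1 rose and 4 fell, with a summed level of 36.6 and 40.5 CPM at day 4, against 71.5 and 68.1 CPM at day 0, and CDH5 and EMCN had 0 counts in the 4 libraries. Of 4 tested leukocyte markers 3 fell. CD14 had 17.8 and 17.9 CPM at day 4, against 129 and 129 CPM at day 0 (log2 fold change -2.85), and LAPTM5 fell by 4.87. PTPRC, AIF1 and TYROBP had 0 counts. Of 8 tested adipocyte markers 4 rose, 2 fell and 2 were not called (median 0.50), while their summed level was lower. They summed to 12.7 and 13.4 CPM at day 4, against 17.2 and 16.4 CPM at day 0, and cartilage and bone markers to 147 and 140 CPM, against 103 and 108 CPM, with ACAN, aggrecan, higher by 2.42. Markers of Schwann and nerve cells summed to 114 and 124 CPM at day 4, against 190 and 195 CPM at day 0. Of the 6 tested 3 rose, among them NEFM by 2.32, and 3 fell, among them MAP2 by 3.02. Melanocyte markers summed to 13.9 and 14.1 CPM at day 4, against 15.4 and 14.8 CPM at day 0. Markers of differentiating epidermis were called higher in 3 and lower in 4 of 14 cases, with a median of -0.38. At least 2-fold changes were 2 of the rises and all 4 falls. TGM1, a transglutaminase, was among those that rose, by 1.33. The part of such cells in the results was not tested.

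Pathway terms in the deposited annotation were counted beside the curated lists. The term vascular smooth muscle contraction held 92 tested genes, of which 37 rose and 35 fell (median 0.03), and regulation of the actin cytoskeleton held 199, of which 70 rose and 74 fell. Those shares lie near the 33.9% and 33.5% of all genes. For focal adhesion 81 of 189 rose and 66 fell. For the cell cycle 30 of 125 rose and 66 fell (median -0.28), and for oxidative phosphorylation 26 of 150 rose and 68 fell (median -0.16). For DNA replication 1 of 36 rose and 22 fell, and for the proteasome 4 of 47 rose and 32 fell. Retinol metabolism showed 15 of 29 genes higher and 6 lower (median 0.92).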

How the data were processed

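RNA-seq of goat cells was analysed in 14 libraries, 2 on each of 7 days, with groups taken from the titles. One deposited table gives an estimated count per gene and library for 30277 genes; 1 further line without values was left out. Per the submitters' processing notes, FastQC 0.10.1, HTSeq and DESeq2 1.16.1 were used; for the aligner, genome build and strand setting nothing is stated in the sources used here. Of the authors' estimated counts above 0, 83.1% were whole numbers, so reads may have been split between near-identical genes, whose levels are uncertain. The table itself named 25219 genes, the RefSeq gene table (ARS1.2) named 3687 more, and 1371 stayed without a symbol. Counts were rounded to whole numbers.

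The test used edgeR 4.0.16 in R 4.3.3, with limma 3.58.1 for voom. After filterByExpr and TMM scaling, 1 quasi-likelihood model covered the 14 libraries, with days as groups (7 residual degrees of freedom, common biological coefficient of variation 0.0455). Day 4 was tested against day 0, 2-sided, with Benjamini-Hochberg adjustment over 15712 genes. CPM use TMM-scaled library sizes. The SE is the absolute log2 fold change over the square root of F and rests on the spread of all days. For day 0, whose libraries lay farthest apart, this shared spread may understate the error. The floor is 3 counts; intervals cover counting error only.

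Named genes are the 12 largest rises and falls at 10 CPM or more, each member of the contraction and SRF lists, and in other lists key genes plus up to 4 largest called changes at 5 CPM or more; members that went against their list, ACTB, ACTG1, THBS1, COL13A1, LPO, MYH14, KRT7 and KRT19 were added after their values were seen. A few genes that fell under the rule are not reported here. The members and lists were chosen with earlier results of these data known. Lists are described by counts and medians, with no test of a list. The procedure was run on simulated data with known changes in few genes and the same spread in every library. The real data had 67.5% of genes called and a wider day 0 pair, so the simulation does not check scaling or error rates there. Alternatives were other scalings, filters, DESeq2 1.42.0, voom weights, fewer libraries, unrounded counts, a replicate block, and leaving out each of the 4 libraries. Sequences were not used here.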

Additional observations from a re-analysis of the deposited data

How the results depend on the processing

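Under 14 alternatives no count moved by more than 1.5 times. Genes called higher numbered 4481 to 5781 and lower 4775 to 5703, and at least 2-fold changes numbered 1764 to 2444 higher and 1092 to 1499 lower. Contractile filament genes called higher numbered 19 to 21, and 2 were lower in each alternative. The median log2 fold change of all genes was 0.01 with TMM, -0.04 with DESeq2 size factors and 0.07 with upper-quartile scaling. Of 310 genes followed, 278 held their call and direction under every alternative in which they were tested. DES, IGF2, RGS4 and RGS5 were tested neither with the stricter filter nor in the fit of the 4 libraries alone, and ELF5 and LPO were each missing from one of these.

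Replicate numbers did not pair the libraries: deviations of same-numbered libraries correlated at -0.279 between days 4 and 0 and at -0.332 to 0.186 over 21 pairs of days. With the replicate number as a block, 5262 genes were called higher and 5206 lower, and of the 310 genes the call of RHOB alone changed (adjusted p = 0.0466). Crossed numbers, chosen after seeing the data, gave 5345 and 5299.

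Directions reversed for 12 genes, none of them called with all libraries; the cause was not tested. With DESeq2 size factors and in DESeq2 COL3A1 was at -0.04831 in both and ROCK2 at -0.001503 and -0.0003682 (log2 fold change). With upper-quartile scaling FN1 was at 0.04398, HMGCS1 at 0.004943, ITGB4 at 0.01644, KRT8 at 0.02032 and MMP2 at 0.039, and with the stricter filter FN1 was at 0.006178 and MMP2 at 0.001682. Leaving out 1 library gave -0.008806 to 0.1354 for ATF4, -0.04703 to 0.03554 for COL3A1, -0.05684 to 0.01172 for FN1 and -0.1338 to 0.01403 for HMGCS1. It gave -0.03569 to 0.2473 for HSPB1, -0.3633 to 1.544 for IGF2, -0.01307 to 0.243 for ITGA6 and -0.1684 to 0.07724 for ITGB4. It gave -0.1116 to 0.02113 for KRT8, -0.1118 to 0.06076 for MMP2, -0.1269 to 0.207 for ROCK2 and -0.2763 to 0.1245 for ZEB1. With 1 library left on a day, that library is assumed to vary like the other days.

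With 2 libraries a day, changes of a few counts, as in DES or RGS5, were not resolved at this depth.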
